A study of Mus musculus with 12 samples.

Results

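The 37 genes described here encode subunits of the Polycomb complexes and the enzymes that add or remove marks on lysines 4 and 27 of histone H3. They were taken by name from a list and are 37 of the 21631 protein-coding genes of chromosomes 1 to 19 and X. All 37 were found in the gene table. For each gene, the peaks of H3K27ac and H3K4me1 were read in its territory. A base belongs to the territory of the gene whose outer end is closest, up to 100 kb away. The share is the number of its territory's bases under peaks per Mb under peaks in the whole library, written bp per Mb. The percent of the territory under peaks is the measure used to compare genes of different length. Cbx2 and Cbx8 have touching territories; apart from this pair, no territories of these genes touch.

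Polycomb proteins keep developmental genes silent through a pair of complexes. PRC2 methylates lysine 27 of histone H3 through Ezh1 or Ezh2, and PRC1 carries the Ring1 or Rnf2 ligase that ubiquitinates histone H2A; chromobox (CBX) subunits of PRC1 read the PRC2 mark. Trithorax-type enzymes of the KMT2 and SETD1 families methylate lysine 4, Ep300 and Crebbp acetylate lysine 27, and KDM enzymes remove the methyl groups. These regulators are known for holding lineage genes poised in the embryo as germ layers form. H3K27ac marks active promoters and enhancers, and H3K4me1 marks enhancers and the flanks of active promoters.

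The libraries came from C57BL/6 mouse embryos at 6 morphological stages, each profiled by CoBATCH, in which an antibody to a histone mark directs the Tn5 transposase to tag nearby DNA in single cells. In stage order they are Pre_PS (embryonic day E6.0), before the primitive streak, the streak stages ES (E6.0 and E6.5), MS (E6.0 and E7.0) and LS (E7.0 and E7.25), OB (E7.25 and E7.5), with no allantoic bud, and EHF (E7.5), with early head folds. The labels name no treatment and no engineered allele. They state removal of extraembryonic tissue for the first 4 stages but not for OB or EHF. Each stage and mark has 1 library, so the spread between replicates is unknown and no difference below was tested. Values across stages are always given in the order Pre_PS, ES, MS, LS, OB and EHF. Because each list describes a whole stage, fewer cells with a mark and less of the mark per cell cannot be told apart.

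The Pre_PS lists covered the fewest bases. The H3K27ac lists held 13398 peaks over 14.3 Mb at Pre_PS and 30072 to 39635 peaks over 35.9 to 42.1 Mb later. The H3K4me1 lists held 36739 peaks over 23.4 Mb at Pre_PS and 35646 to 47849 over 39.1 to 51.3 Mb later, and at Pre_PS 67.3% of these peaks sat at the lowest value the list holds, against 2.64% to 9.77% later. Tissue markers were read at gene ends: from ES on, an H3K27ac peak lay there at 5 of 5 epiblast markers and 4 of 4 streak and mesoderm markers, but at 2 or 3 of 5 markers each of visceral endoderm and trophoblast. Ttr, Afp, Tpbpa and Prl3d1 never had one in either mark. The summed H3K27ac share of the visceral endoderm markers was 274 bp per Mb at Pre_PS and 111 to 161 later, and that of the trophoblast markers 204 and 272 to 320. The epiblast sum was also highest at Pre_PS, 741 against 459 to 515 later, and so was the streak and mesoderm sum, 348 against 246 to 317. A high Pre_PS share was thus not particular to visceral endoderm markers. The part of visceral endoderm and trophoblast in the results below was not tested.

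The promoters of 4 genes are printed because they show both kinds of start site found among the 37 genes: starts rich in the dinucleotide CG, which lay under peaks, and starts poor in CG within the same gene, which mostly did not. They are the 250 bases before the start, 5′ to 3′ on the gene's strand, from RefSeq on GRCm38.p6, with each CG in capitals. RefSeq promoters were found for 32 of the 37 genes; Cbx2, Pcgf1, Kmt2b, Setd1b and Kdm6b had none in the table. Phc2 encodes a polyhomeotic subunit of PRC1 and has 3 starts.
Phc2 promoter 1, chr4:128654452-128654701, plus strand: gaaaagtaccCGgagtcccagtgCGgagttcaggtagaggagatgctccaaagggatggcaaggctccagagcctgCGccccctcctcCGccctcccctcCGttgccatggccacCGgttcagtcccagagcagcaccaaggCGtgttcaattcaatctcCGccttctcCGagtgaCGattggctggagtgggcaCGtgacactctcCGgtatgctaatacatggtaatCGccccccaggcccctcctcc
Phc2 promoter 2, chr4:128688488-128688737, plus strand: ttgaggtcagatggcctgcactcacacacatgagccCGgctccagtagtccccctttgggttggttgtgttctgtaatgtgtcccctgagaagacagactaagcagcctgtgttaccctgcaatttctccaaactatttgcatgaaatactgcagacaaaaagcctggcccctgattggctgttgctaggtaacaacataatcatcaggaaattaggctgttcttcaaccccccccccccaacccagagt
Phc2 promoter 3, chr4:128727321-128727570, plus strand: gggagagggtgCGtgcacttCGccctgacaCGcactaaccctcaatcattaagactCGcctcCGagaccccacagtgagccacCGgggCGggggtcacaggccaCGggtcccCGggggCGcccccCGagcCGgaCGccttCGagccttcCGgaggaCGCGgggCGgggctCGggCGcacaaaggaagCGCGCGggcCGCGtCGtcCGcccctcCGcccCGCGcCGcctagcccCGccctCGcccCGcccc
Mtf2 encodes an accessory subunit that brings PRC2 to CG-rich DNA, and has 2 starts.
Mtf2 promoter 1, chr5:108065424-108065673, plus strand: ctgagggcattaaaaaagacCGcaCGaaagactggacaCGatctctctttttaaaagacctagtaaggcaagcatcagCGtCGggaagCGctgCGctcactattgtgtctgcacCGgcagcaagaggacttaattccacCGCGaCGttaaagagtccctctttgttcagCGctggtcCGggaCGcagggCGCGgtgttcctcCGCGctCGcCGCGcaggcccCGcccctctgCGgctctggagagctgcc
Mtf2 promoter 2, chr5:108077915-108078164, plus strand: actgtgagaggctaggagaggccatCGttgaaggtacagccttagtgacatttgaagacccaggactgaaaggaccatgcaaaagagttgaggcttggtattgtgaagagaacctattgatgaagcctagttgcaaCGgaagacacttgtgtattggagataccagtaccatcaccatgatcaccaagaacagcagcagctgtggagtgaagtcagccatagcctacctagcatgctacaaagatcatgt
Pcgf5 encodes a PCGF subunit of variant PRC1 and has 3 starts.
Pcgf5 promoter 1, chr19:36348079-36348328, plus strand: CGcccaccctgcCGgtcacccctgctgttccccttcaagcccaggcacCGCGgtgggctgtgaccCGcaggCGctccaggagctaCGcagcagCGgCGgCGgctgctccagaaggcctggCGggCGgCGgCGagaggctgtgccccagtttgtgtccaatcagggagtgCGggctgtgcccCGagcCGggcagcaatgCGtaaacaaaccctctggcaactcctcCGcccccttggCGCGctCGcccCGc
Pcgf5 promoter 2, chr19:36378817-36379066, plus strand: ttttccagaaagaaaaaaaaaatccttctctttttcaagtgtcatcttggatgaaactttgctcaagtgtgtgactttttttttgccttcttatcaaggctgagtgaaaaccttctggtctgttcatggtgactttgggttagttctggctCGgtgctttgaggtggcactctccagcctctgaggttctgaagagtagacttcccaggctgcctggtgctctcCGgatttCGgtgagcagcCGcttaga
Pcgf5 promoter 3, chr19:36409498-36409747, plus strand: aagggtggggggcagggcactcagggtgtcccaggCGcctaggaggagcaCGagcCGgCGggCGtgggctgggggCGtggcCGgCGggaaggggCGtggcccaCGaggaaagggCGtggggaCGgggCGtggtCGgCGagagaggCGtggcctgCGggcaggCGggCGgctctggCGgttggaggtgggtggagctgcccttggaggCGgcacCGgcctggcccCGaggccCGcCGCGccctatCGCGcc
Cbx7 encodes a chromobox subunit, and its start lies far inside its outer ends.
Cbx7 promoter 1, chr15:79932647-79932896, minus strand: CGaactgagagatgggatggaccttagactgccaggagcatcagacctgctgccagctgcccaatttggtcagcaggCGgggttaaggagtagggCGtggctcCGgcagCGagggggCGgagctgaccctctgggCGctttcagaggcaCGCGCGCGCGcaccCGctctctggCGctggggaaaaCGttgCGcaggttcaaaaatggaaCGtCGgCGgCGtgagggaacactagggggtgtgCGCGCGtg

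The motif counted was CG, which reads the same on both strands, over 300 bases (250 before and 50 after each start). Promoters 1 and 3 of Phc2 held 19 and 45 CG, and each lay under an H3K27ac and an H3K4me1 peak at all 5 stages from ES on and under none at Pre_PS. Promoter 2 of Phc2 held 2 CG and lay under no H3K27ac peak; its 1 H3K4me1 peak, 355 bp wide at Pre_PS, was at the lowest fold of that list (1.97). The Mtf2 promoters held 30 and 2 CG. The first lay under an H3K27ac peak at all 6 stages and an H3K4me1 peak at 5, and the second lay under no peak in any of the 12 libraries. Of the Pcgf5 promoters, 1 and 3 held 34 and 35 CG and lay under H3K27ac at all 6 stages and H3K4me1 at 5. Promoter 2 held 5 CG and lay under no peak. The Cbx7 promoter held 33 CG and lay under both marks in all 12 libraries, with H3K27ac peaks of 865 to 1590 bp.

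Across the 40 promoters of these genes the median was 25.5 CG (2 to 56), and over all 21045 promoters in the table it was 13 (0 to 67). Promoters with 20 or more CG make up 36.3% of all promoters, and 97.9% of those lay under an H3K27ac peak at all 5 later stages. All 29 such promoters of these genes did too. Promoters with 10 to 19 CG did so in 78.1% of all and in 5 of 5 of these genes. Below 10 CG, it was 9.76% of all 8985 promoters and 1 of 6 here, and 4 of these 6 never lay under H3K27ac. For H3K4me1 the shares of all promoters were 97.6%, 80.3% and 11.7%, and the counts here were 29 of 29, 5 of 5 and 2 of 6. Aebp2, an accessory PRC2 subunit, has all kinds in a row. Its middle promoter, with 21 CG, lay under H3K27ac at all 6 stages, its first, with 4 CG, at LS, OB and EHF, and its last, also with 4 CG, at none. In H3K4me1 the first and the middle promoter lay under peaks at the same 5 stages. The single start of Phc1, with 9 CG, lay under both marks at all 5 later stages. In these genes, no promoter of 10 or more CG lacked a peak from ES on.

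**Figure D1:**
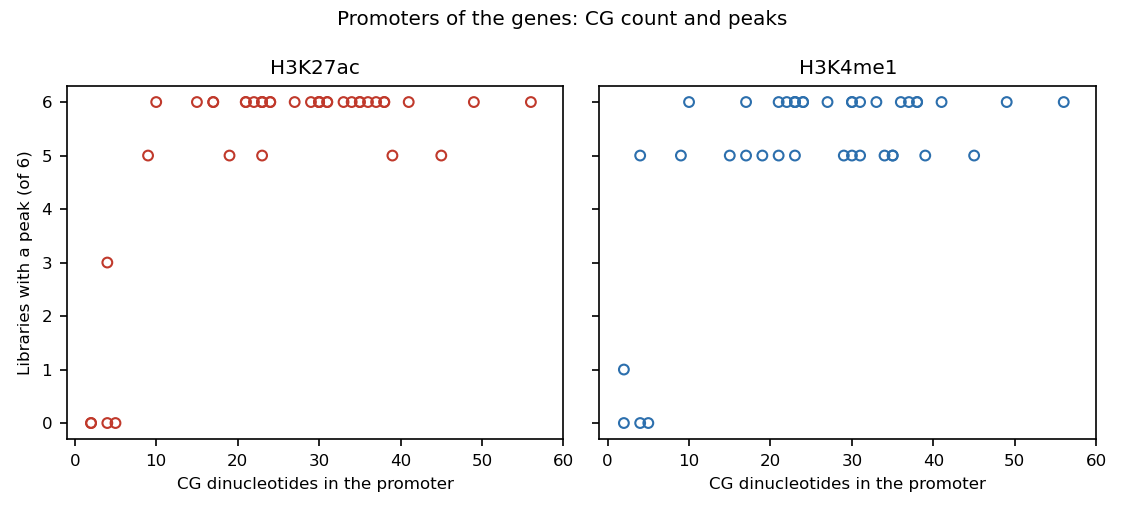
Each circle is 1 of the 40 RefSeq promoters of these genes, with its CG count over 300 bases on the x axis and the number of libraries (of 6) with a peak over it on the y axis, H3K27ac on the left and H3K4me1 on the right. The promoters at 0 to 3 libraries in H3K27ac, and those at 0 or 1 in H3K4me1, all hold 5 CG or fewer.

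From ES on, each of these genes with a RefSeq promoter carried both marks at a start. A peak over a RefSeq promoter was present at all 5 later stages in 32 of 32 genes for each mark, against 58.5% of all genes for H3K27ac and 59.7% for H3K4me1. These shares of all genes are not matched for CG. Of all promoters with 20 or more CG, 97.9% lay under H3K27ac and 97.6% under H3K4me1 at these stages, and 29 of the 40 promoters here are of that class. At Pre_PS, 28 of 32 genes had an H3K27ac promoter peak (39.0% of all genes) and 21 of 32 an H3K4me1 promoter peak (37.4%). The 4 without H3K27ac there were Rbbp4, Bmi1, Phc1 and Phc2. Those without H3K4me1 were Eed, Mtf2, Aebp2, Rbbp4, Cbx6, Pcgf3, Pcgf5, Phc1, Phc3, Setd1a and Kdm1a. Since the Pre_PS lists cover the fewest bases, a missing peak there says only that none was listed. Within 1 kb of either outer gene end, an H3K27ac peak lay at all 6 stages in 31 of 37 genes (83.8%; 41.4% of all genes) and an H3K4me1 peak in 26 (70.3%; 45.7% of all genes).

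From ES on, only Cbx7 and Pcgf2 lacked an end peak at any stage, and their RefSeq starts lie 38.5 and 2.79 kb inside the outer end. The promoter peaks were also wide. At EHF the median width over these genes was 1700 bp for H3K27ac and 1657 bp for H3K4me1, against 1212 and 1153 bp over all genes with such a peak. By the authors' fold, ranked within the EHF lists, the median H3K27ac promoter peak of these genes stood at percentile 87.2 and that of all genes at 80.5. The H3K4me1 medians had the opposite order, at percentiles 73.7 and 77.2. The same order in each mark held at all 5 later stages.

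The genes differed widely in how much of the territory lay under peaks. Averaged over the 5 later stages, the median gene here had 2.77% of its territory under H3K27ac (2.50% over all genes with a peak) and 2.92% under H3K4me1 (2.70%), but the range ran from 1.11% to 70.8% and from 0.918% to 74.9%. In 5 genes, Kdm6b, Cbx8, Kmt2d, Kmt2b and Setd1b, both marks covered at least 40%. That is 13.5% of these genes, against 2.47% of all genes for H3K27ac and 3.07% for H3K4me1; the 40% limit was chosen after these values were seen. The next gene, Ring1, had 25.7% and 25.5%. Their territories are compact, 20.96 to 44.3 kb, but 10 other genes here with territories no longer than 44.3 kb had 3.85% to 25.7% under H3K27ac and 3.78% to 25.5% under H3K4me1.

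**Figure D2:**
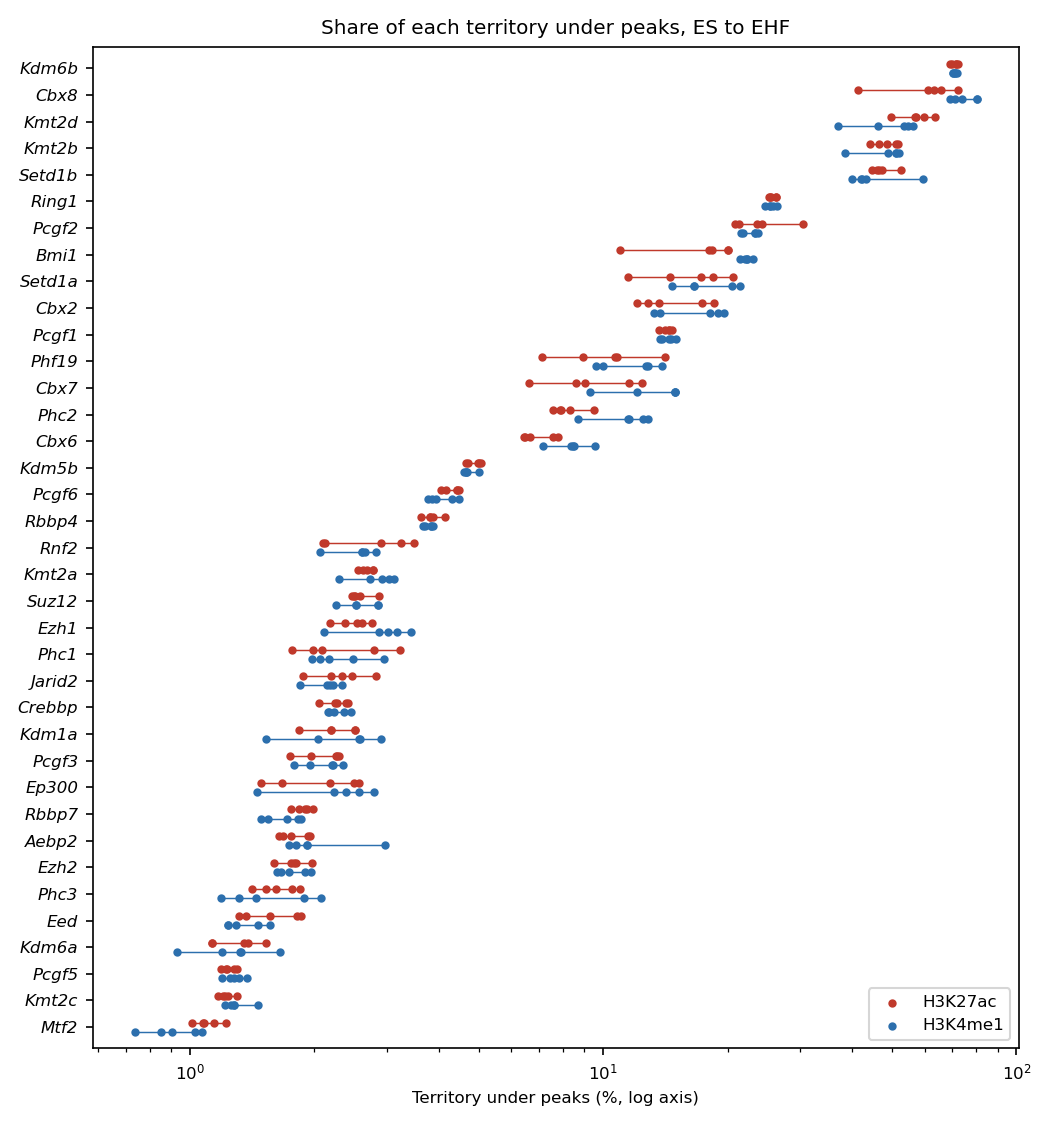
Percent of each gene's territory under peaks (log axis) at ES, MS, LS, OB and EHF, 1 point per library, H3K27ac in red and H3K4me1 in blue, with a line from the lowest to the highest. The 5 genes at the top, from Kdm6b (means 70.8% and 70.9%) to Setd1b (47.4% and 45.4%), stand apart from Ring1 (25.7% and 25.5%) and the rest.

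The PRC2 core genes carried compact marks at their starts. Ezh2 (chr6:47530274-47595270), the main H3K27 methyltransferase of dividing cells, had H3K27ac shares of 94.6, 40.7, 52.7, 41.1, 42.1 and 47.2 bp per Mb. All of it was 1 peak over the promoter, 1349 bp wide at Pre_PS and 1533 to 1894 bp later, so the high share at Pre_PS went with a narrower peak in a list of smaller total. Eed, which binds the methylated histone tail and stimulates the enzyme, had H3K27ac shares of 41.0, 35.6, 55.6, 46.3, 38.9 and 46.6 and H3K4me1 shares of 20.5, 34.1, 30.1, 30.7, 27.3 and 34.0, highest for H3K27ac at MS and in both marks among the 5 lowest percents of territory (1.58% and 1.36%).

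Suz12, the scaffold subunit, and the histone-binding subunit gene Rbbp4 had every covered base of the later stages within 1 kb of a gene end in both marks, as had Mtf2, Pcgf3 and Pcgf6. For Rbbp4 only the part of the peak inside its territory counts, a mean of 0.93 kb of H3K27ac from peaks of 1.49 to 1.65 kb. In 9 of the 37 genes the territory held exactly 1 peak in each of the 10 later libraries. These were Ezh2, Suz12, Mtf2, Rbbp4, Rbbp7, Ring1, Pcgf1, Pcgf3 and Pcgf6, that is, 4 PRC2 core genes, 1 accessory subunit and 4 PRC1 genes. Kmt2c missed this only through an H3K4me1 peak of 388 bp at MS, at the lowest fold of that list (2.58). The share of all genes with 1 peak throughout was not counted, so whether this is particular to these genes was not tested. Ezh1, the second methyltransferase, had 2.49% and 2.92% of its territory under H3K27ac and H3K4me1, and Rbbp7 1.88% and 1.68%.

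The accessory PRC2 genes differed in how much marked chromatin lay away from the start. Mtf2 had the lowest percent of all 37 genes in both marks, 1.11% and 0.918%, all in the peak over its CG-rich promoter 1 shown above. Its H3K27ac shares were 114, 24.5, 30.3, 22.8, 24.8 and 26.4 bp per Mb and its H3K4me1 shares 0, 16.3, 14.8, 18.6, 18.0 and 19.3. That H3K27ac peak was 1632 bp wide at Pre_PS and 902 to 1089 bp afterwards, so it was widest where the list covers the fewest bases, the opposite of Ezh2.

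Jarid2, a DNA-binding subunit that helps place PRC2, has the longest territory here (291 kb). It held 9 separate H3K27ac regions when peaks were merged over stages, of which 3 were present at all 6 stages. Besides the promoter region, a second strong one lay 2.49 kb downstream of the start (chr13:44733000-44734523), 917 bp wide at Pre_PS and 1270 to 1524 bp later. Another, 139 kb downstream inside the gene (chr13:44869325-44870373), was 506 bp wide at Pre_PS and 678 to 1049 bp later. H3K4me1 covered the same 3 places at all 6 stages.

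Phf19, which reads methylated lysine 36, had H3K27ac shares of 89.4, 60.2, 106, 74.3, 103 and 137. The log2 ratio of late (OB and EHF) over early (ES and MS) shares, 0.53, was the highest of the 37, yet MS lay above OB, so the stages overlapped. An internal region (chr2:34904833-34906690) had no H3K27ac peak at Pre_PS, one of 682 bp at ES and 1603 to 1858 bp from MS on. A second (chr2:34895558-34897338) was listed at MS, OB and EHF, with 579, 457 and 1414 bp. Aebp2 had H3K4me1 shares of 43.2, 101, 73.3, 63.1, 59.7 and 75.1 and H3K27ac shares of 111, 78.5, 77.4, 70.4, 90.7 and 78.4. Its H3K4me1 share was highest at ES, and MS overlapped EHF.

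The PRC1 ligase genes differed in extent. Ring1 (chr17:34020792-34024680) had H3K27ac shares of 246, 89.0, 104, 90.9, 102 and 106, with 3.51 to 3.84 kb of its territory covered at all 6 stages. Rnf2, the main ligase of the embryo, had H3K4me1 shares of 18.3, 38.8, 33.8, 36.9, 39.995 and 48.2 and H3K27ac shares of 122, 50.6, 42.9, 59.8, 41.8 and 64.8. Both later H3K4me1 values stood above both early ones. Covered bases, not scaled to the list, were 1.92 kb at ES, 1.495 at MS, 2.04 at OB and 1.88 at EHF, so by length EHF was not above ES. A region upstream of the start, at -16.6 kb (chr1:151517363-151517896), had 362, 437, 521 and 439 bp at ES, LS, OB and EHF and no peak at MS, and the promoter peak had 1445 to 1554 bp from ES on.

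Of the chromobox genes, Cbx8 stood apart. Its H3K27ac shares were 205, 403, 512, 382, 289 and 429 and its H3K4me1 shares 333, 365, 426, 397, 400.4 and 450.5, or means of 60.7% and 74.9% of its territory. Cbx8 itself is short, 4611 bp (chr11:119036303-119040913), and 64.7% of its H3K27ac and 65.6% of its H3K4me1 bases lay outside the gene, mostly upstream of its start. One block spanned the gene and its upstream side (chr11:119034212-119048184), with 6071 bp under H3K27ac at OB and 10301 to 12288 bp at the other later stages. A second (chr11:119052859-119059347), at -15.2 kb from the start, carried 4433 to 6486 bp of H3K27ac and 6254 to 6475 bp of H3K4me1 from ES on. OB was thus the low stage for H3K27ac at Cbx8 and not for H3K4me1.

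Cbx2, beside it, had 14.9% and 16.7%. Cbx7 had H3K27ac shares of 0, 155, 95.5, 106, 165 and 129.5 and H3K4me1 shares of 18.2, 157, 109, 151, 152 and 161. None of this came from its promoter, printed above, which falls in the territory of Apobec3, a gene with an end inside the outer ends of Cbx7. It came from regions upstream of that start but mostly inside the outer ends, led by one at -18.98 kb from the start (chr15:79950053-79953197), absent in H3K27ac at Pre_PS and 2287 to 3021 bp wide later. The start of Cbx6 falls likewise in the territory of Npcd, and its 6.97% and 8.40% leave it out.

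The PCGF genes, whose products define the PRC1 variants, differed in percent of territory. Pcgf2 had 24.1% and 22.7% of its territory under H3K27ac and H3K4me1, and Pcgf5, with a territory of 259 kb, 1.24% and 1.28%. Their mean covered lengths were close, 3.42 and 3.23 kb for Pcgf2 and 3.23 and 3.32 kb for Pcgf5. H3K27ac shares of Pcgf2 were 149, 104, 93.0, 81.7, 83.4 and 81.8 and its H3K4me1 shares 176, 67.0, 69.2, 60.4, 66.2 and 84.7. Its promoter peak was 2120 bp wide in H3K27ac at Pre_PS and 2444 to 2576 bp later, so the promoter was marked in all 12 libraries even where no peak reached within 1 kb of the outer ends.

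For Pcgf5, H3K27ac shares of 154, 80.0, 86.1, 75.5, 87.3 and 93.1 and H3K4me1 shares of 47.3, 65.5, 77.0, 64.6, 69.8 and 79.2 came mostly from the peaks over promoters 1 and 3 shown above, 1763 to 2033 bp and 1257 to 1371 bp wide in H3K27ac from ES on. Pcgf1 had H3K27ac shares of 0, 32.0, 38.2, 33.8, 38.5 and 38.7 and H3K4me1 shares of 0, 27.3, 32.0, 27.3, 28.6 and 34.1. Pcgf3 had 71.3, 23.9, 36.2, 30.6, 30.7 and 35.4 for H3K27ac and 0, 25.5, 28.3, 26.0, 21.7 and 26.0 for H3K4me1. No peak of either mark was listed for Pcgf1 at Pre_PS, and no H3K4me1 peak for Pcgf3.

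Bmi1 (chr2:18677018-18686629), the PCGF subunit known for silencing the Cdkn2a locus, had H3K27ac shares of 0, 50.7, 31.9, 49.7, 51.8 and 52.9 and H3K4me1 shares of 69.9, 47.1, 50.5, 45.5, 45.1 and 61.6. No H3K27ac peak was listed at Pre_PS, where the H3K4me1 share was highest although its peaks, 1148 and 490 bp, were the narrowest of the 6 stages. The low H3K27ac value at MS went with a second region, 4.04 kb downstream of the start (chr2:18680650-18681477), which had peaks of 828, 577, 662 and 656 bp at ES, LS, OB and EHF and none at MS. H3K4me1 covered this region at all 6 stages, with 856 bp at MS. The first region reaches past the end of the neighbouring gene Commd3.

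The polyhomeotic genes encode the PRC1 subunits that can polymerise and compact chromatin. Phc1 had H3K27ac shares of 50.2, 36.5, 37.4, 58.1, 58.2 and 43.9 and H3K4me1 shares of 12.8, 38.1, 35.5, 32.1, 44.0 and 38.3. Its promoter peak kept to 1178 to 1344 bp of H3K27ac from ES on. The higher late shares went with an internal region 16.8 kb downstream (chr6:122322988-122323886), listed with 740, 386 and 390 bp at LS, OB and EHF and at no earlier stage. A region upstream, at -15.9 kb, had 335, 366 and 418 bp at ES, LS and OB.

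Phc2 (chr4:128654655-128752881) had H3K4me1 shares of 119, 279, 234, 267, 301 and 382 and H3K27ac shares of 29.5, 227, 262, 269, 248 and 274. Its H3K4me1 formed 16 regions over the stages. The widest (chr4:128707650-128712586), 4626 to 4937 bp from ES on, lies between promoters 2 and 3 and was flat. The 3′ regions moved instead. The last (chr4:128751331-128753697) had 418, 797, 0, 1306, 1367 and 2367 bp, and the one before it (chr4:128746030-128748745) 0, 2020, 483, 1034, 2505 and 1761 bp, both lowest at MS among the stages from ES on.

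Phc3 had H3K4me1 shares of 0, 32.3, 39.6, 19.5, 24.0 and 28.4 and H3K27ac shares of 85.5, 36.0, 38.0, 30.6, 42.8 and 33.0. The H3K4me1 values were lower at OB and EHF than at ES and MS. Besides the promoter peak of 1002 to 1269 bp, ES and MS had a region 7.74 kb downstream (chr3:30961360-30961986) of 332 and 485 bp that no other stage had.

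The H3K4 methyltransferase genes differed widely in percent of territory. Kmt2d (chr15:98831669-98874077) encodes a main writer of H3K4me1 at enhancers. Its H3K27ac shares were 730.4, 608, 786, 628, 605 and 699 and its H3K4me1 shares 339, 491, 464, 487, 465 and 420.1, the largest shares of the 37 in each mark from ES on except that Cbx8 was above it in H3K4me1 at EHF. Of the H3K27ac bases from ES on, 98.2% lay inside the gene over 1 kb from its ends. One internal region (chr15:98849040-98866427) carried 12180 to 17048 bp of H3K27ac from ES on. The highest fold of its peaks was 5.62 to 6.97 at these stages, against 16.0 to 26.4 in the region over the RefSeq start. In H3K4me1 the region at chr15:98839575-98846668 had 5201, 4120, 6790 and 6889 bp at ES, MS, LS and OB and 1678 bp at EHF.

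Its paralogue Kmt2c, with the same enzyme activity, had 1.23% and 1.30% of its territory covered, against 57.4% and 49.6% for Kmt2d. Kmt2c had H3K27ac shares of 156, 61.6, 71.8, 65.2, 67.8 and 72.3 and H3K4me1 shares of 104, 54.9, 69.9, 51.8, 50.6 and 69.2. In kb the gap between the paralogues was also large, 2.47 to 2.75 kb of H3K27ac for Kmt2c and 22.02 to 28.2 kb for Kmt2d from ES on. The Kmt2c means, 2.59 kb of H3K27ac and 2.75 kb of H3K4me1, were the medians of the 37 genes. Its low percents thus went with an ordinary covered length.

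Kmt2b (chr7:30568855-30589056), which methylates lysine 4 at bivalent promoters, had H3K27ac shares of 133, 224, 299, 231, 280.2 and 299 and H3K4me1 shares of 145, 217, 247, 208, 201 and 206, with means of 48.4% and 48.3% of the territory. Its paralogue Kmt2a, with a territory of 94.1 kb, had 2.68% and 2.82%. The Kmt2b block (chr7:30579913-30590494) had 1896 bp of H3K27ac at Pre_PS and 8910 to 10493 bp later.

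Setd1b (chr5:123142040-123168630), a catalytic subunit of a complex for promoter trimethylation, had H3K27ac shares of 289, 323, 367, 300.2, 357 and 412 and H3K4me1 shares of 264, 242, 269.7, 221, 329.6 and 313, or 47.4% and 45.4% of its territory. OB was the high stage in H3K4me1: the region at chr5:123147231-123152768 carried 5267 bp at OB and 2518 to 4115 bp at the other later stages, and that at chr5:123156729-123163716 6834 bp against 4684 to 5198 bp. Setd1a had H3K27ac shares of 93.2, 119.7, 97.5, 106, 114 and 76.5 and H3K4me1 shares of 15.4, 80.9, 111, 101, 78.6 and 90.6, and 16.5% and 18.0%. In each of the pairs Kmt2c and Kmt2d, Kmt2a and Kmt2b, and Setd1a and Setd1b, 1 paralogue was thus above 40% and the other below 20%.

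**Figure D3:**
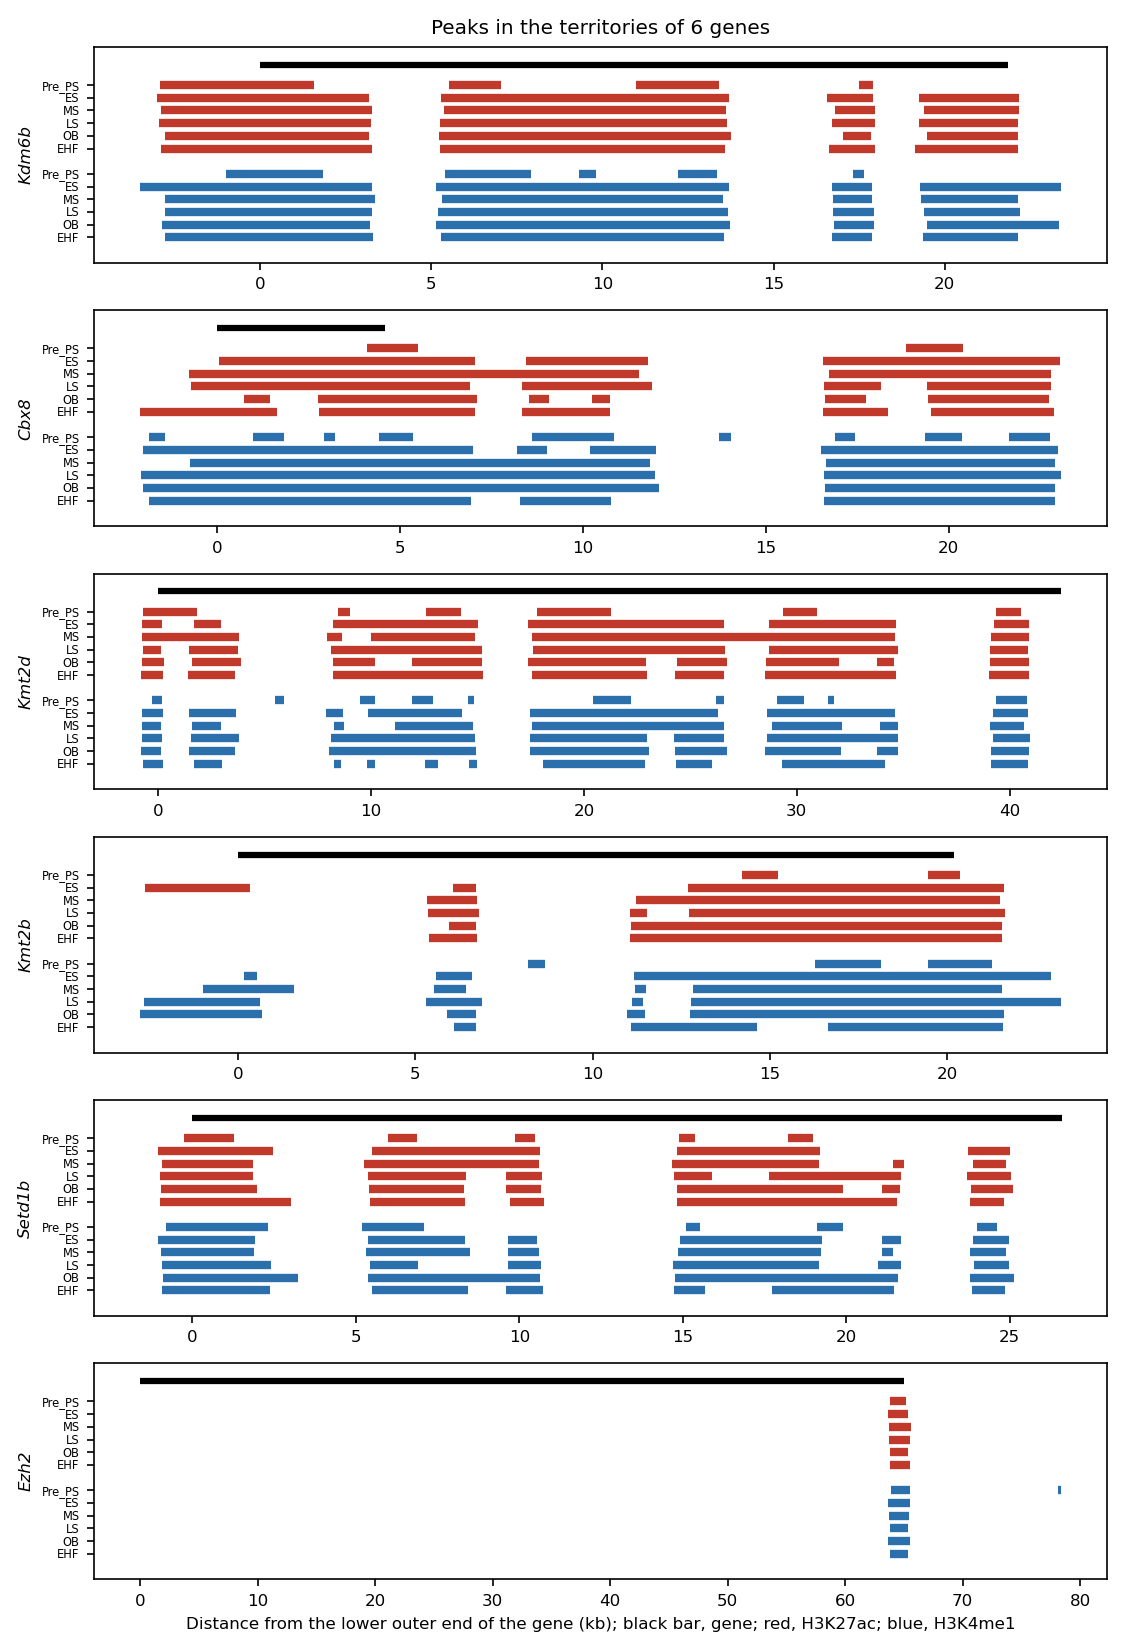
Peaks of both marks in the territories of Kdm6b, Cbx8, Kmt2d, Kmt2b, Setd1b and Ezh2, 1 row per library, against the distance in kb from the lower outer end of the gene (black bar, gene; red, H3K27ac; blue, H3K4me1). Both marks run along the first 5 genes or, at Cbx8, past the gene, whereas from ES on Ezh2 has 1 peak at its start in each library.

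The acetyltransferase genes were alike in extent. Ep300 and Crebbp, which write H3K27ac, had 2.08% and 2.27% of their territories under H3K27ac and 2.29% and 2.27% under H3K4me1. The Ep300 promoter peak was 1883 to 2113 bp wide in H3K27ac from ES on. A second Ep300 region, 63.4 kb downstream near its 3′ end (chr15:81648942-81650321), had 1310, 0, 1258, 1368, 715 and 0 bp of H3K27ac, so it was missing at ES and EHF. H3K4me1 covered that place at all stages but EHF.

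The demethylase genes also differed widely in percent of territory. Kdm6b (chr11:69398508-69420367), which removes methyl groups from lysine 27, had H3K27ac shares of 425, 384, 432, 376, 421 and 443 and H3K4me1 shares of 275, 322, 354, 308, 309 and 399. In kb it was among the steadiest, 15.3 to 16.0 kb of H3K27ac and 15.6 to 15.9 kb of H3K4me1 from ES on, over 70.8% and 70.9% of its territory. Its X-linked paralogue Kdm6a (chrX:18160862-18279936) had 1.31% and 1.29%. The Kdm6a means of 2.52 kb of H3K27ac and 2.48 kb of H3K4me1 lay near the medians of the 37 genes (2.59 and 2.75 kb). Kdm6a had H3K27ac shares of 103, 71.2, 74.4, 52.0, 71.8 and 60.4 and H3K4me1 shares of 65.8, 64.7, 57.6, 44.9, 50.5 and 46.0.

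The H3K4me1 values of Kdm6a were lower at OB and EHF than at ES and MS. Its promoter peak had 2172 and 2246 bp at ES and MS and 2076 and 1797 bp at OB and EHF, and a region 139 kb downstream, beyond the gene (chrX:18301208-18301848), had 585 and 303 bp at ES and MS only. Another, 155 kb downstream, had 439 and 497 bp at ES and OB. At the region 139 kb downstream, the MS peak had the lowest fold of its list (2.578) and the ES peak 3.008. Both lay below the lowest folds of the OB (3.009) and EHF (3.225) lists. With territories of 20 kb the log2 ratio of Kdm6a was -0.13 and the call was lost. Kdm1a, the lysine 4 demethylase LSD1, had H3K27ac shares of 51.5, 38.3, 36.9, 43.1, 43.5 and 50.01 and H3K4me1 shares of 11.5, 29.9, 42.0, 40.8, 36.5 and 28.2. Its internal H3K27ac region 15.2 kb downstream (chr4:136587245-136587868) had 371 bp at ES, none at MS and 429 and 455 bp at OB and EHF. Kdm5b, which removes methyl groups from lysine 4, had 4.88% and 4.72%.

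Early and late stages were then compared. A gene was called where both OB and EHF lay above, or both below, ES and MS and the ratio of the means was at least 1.2; with 1 library per stage this describes these libraries and is no test. In H3K27ac, 3 of 37 genes were higher late, Bmi1 (log2 ratio 0.34), Phc1 (0.47) and Kdm1a (0.31), which is 8.11% against 11.9% of all 17153 genes with a peak. None was lower (9.63% of all genes). In H3K4me1, 3 were higher, Rnf2 (0.28), Phc2 (0.41) and Setd1b (0.33), against 10.2% of 17836 genes, and 2 were lower, Phc3 (-0.46) and Kdm6a (-0.34), 5.41% against 10.6%.

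These counts lie near or under the background, so by the calls these genes gave no late-against-early pattern beyond that of all genes. By direction alone, 28 of 37 had a log2 ratio above 0 in H3K27ac (57.7% of all genes) and 22 in H3K4me1 (55.1%). Among genes with an end peak at all 5 later stages these shares were 59.1% and 58.2%, and the difference was not tested. No gene was called in both marks. With covered bases not scaled to the library, the calls of Phc1, Phc2, Setd1b and Phc3 remained and those of Bmi1, Kdm1a, Rnf2 and Kdm6a were lost. Among all genes with an end peak at all 5 later stages, 12.1% were higher and 8.37% lower in H3K27ac, and 11.1% and 8.38% in H3K4me1. The median log2 ratio was 0.12 for these genes and 0.05 for all in H3K27ac, and 0.06 and 0.03 in H3K4me1. Leaving out 1 of the 4 libraries moved some of the counts by more than 1.5 times, and the rule then has fewer values to keep apart. Without MS, 11 genes were higher in H3K27ac (23.3% of all genes, against 11.9%). Without OB, 11 were higher in H3K4me1 (25.8% of all genes, against 10.2%). With Pre_PS in place of MS, 6 genes were higher and 2 lower in H3K27ac (20.0% and 9.39% of all genes), and 8 higher and 1 lower in H3K4me1 (17.0% and 11.6%).

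**Figure D4:**
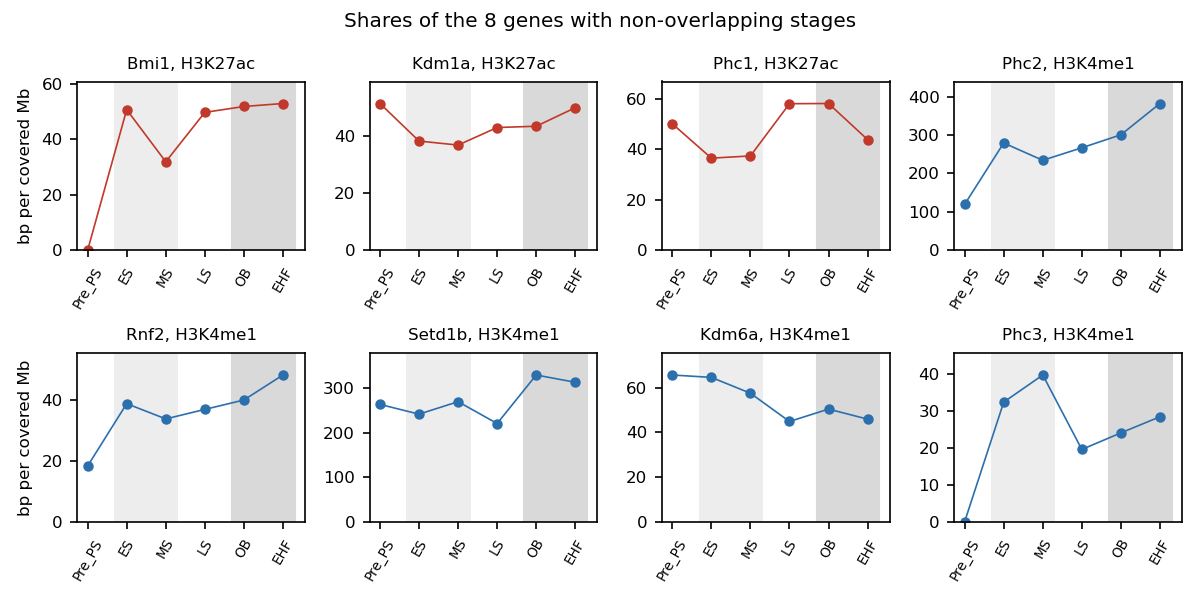
Share of the gene in bp per covered Mb at the 6 stages for the 8 genes called in a mark, 1 point per library (red, H3K27ac; blue, H3K4me1), with ES and MS shaded light and OB and EHF dark. Within each panel the points of the dark band do not overlap those of the light band, by small margins at Bmi1 (50.7 at ES and 51.8 at OB) and Rnf2 (38.8 and 39.995).

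**Figure D5:**
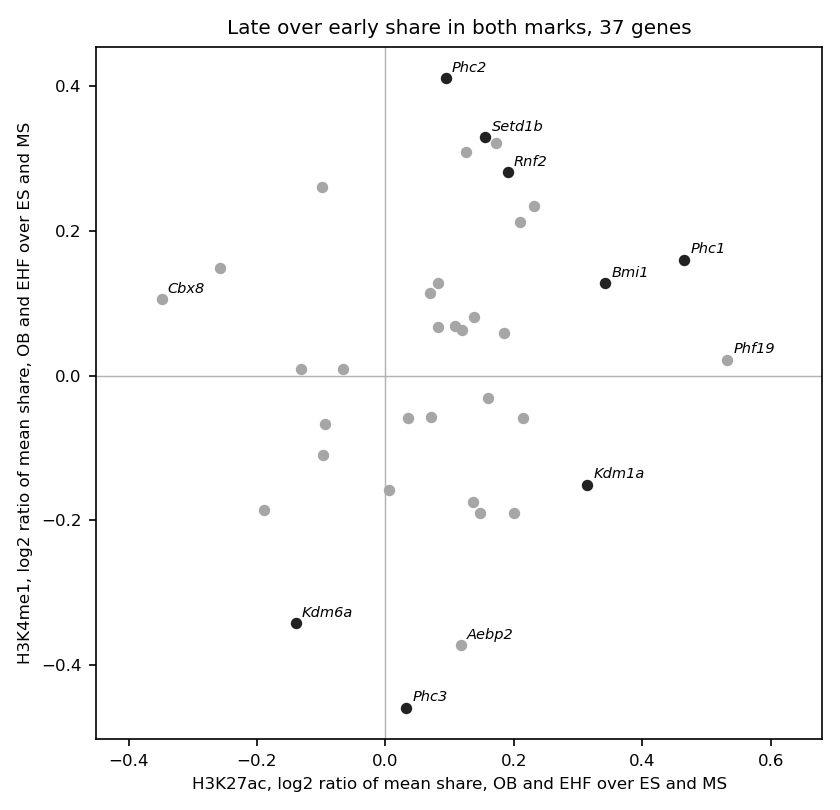
Each point is 1 of the 37 genes, with the log2 ratio of the mean share at OB and EHF over that at ES and MS for H3K27ac on the x axis and for H3K4me1 on the y axis; black points are genes called in a mark. In H3K27ac 28 of 37 points lie above 0 (57.7% of all genes) and in H3K4me1 22 (55.1%), and Phf19, at 0.53 in H3K27ac, is not called because MS overlaps OB.

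A ratio of means within 1.2 either way was found for 32 of 37 genes in H3K27ac and 29 in H3K4me1. The shares were 62.7% and 61.5% over all genes with a ratio, and 67.8% and 67.0% over those with an end peak at all 5 later stages. The highest share over the lowest of the 5 later stages had a median of 1.33 in H3K27ac and 1.34 in H3K4me1, against 1.45 and 1.49 over all genes with an end peak at those stages. These genes also had more covered bases, a median of 2.59 kb of H3K27ac and 2.75 kb of H3K4me1 against 1.60 and 1.79 kb in that set, and the part of this in the narrower range was not tested. Merged over stages, the H3K27ac peaks of these genes formed 103 regions, of which 49 were present at all 6 stages, 17 at 5 and 17 at 1. Of 134 H3K4me1 regions, 50 were present at all 6, 29 at 5 and 33 at 1.

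A further 39 genes of the same pathways, from a list of partner subunits and related enzymes, gave 5 higher and 2 lower in H3K27ac (12.8% and 5.13%) and 1 higher and 3 lower in H3K4me1 (2.56% and 7.69%). Of these 4 shares only the first, 12.8%, was above that of all genes (11.9%). Bap1, which removes ubiquitin from histone H2A against PRC1, had H3K27ac shares of 27.1, 21.5, 16.5, 36.0, 38.0 and 46.8 (log2 ratio 1.16), with LS, OB and EHF above every earlier stage. Its partner Asxl1 had 58.8, 43.6, 48.7, 72.8, 71.3 and 86.6 (0.78).

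Asxl2 had a log2 ratio of 0.34, and the others were Yaf2 (0.45), of variant PRC1, and Rbbp5 (0.35), a core subunit of the lysine 4 methyltransferases. Asxl1 was lower late in H3K4me1, with 68.8, 66.7, 56.8, 44.7, 50.5 and 41.6 (-0.42), so its marks went opposite ways. Lower late in H3K27ac were Paxip1 (-0.49) and Rcor1 (-0.32), partners of Kmt2d and Kdm1a. In H3K4me1, Wdr5 (0.62) was higher and the demethylases Kdm1b (-0.41) and Kdm5c (-0.70) lower.

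The marks lay over the same bases to a large extent. From ES on, the median gene here had 89.6% to 97.0% of its H3K27ac bases also under H3K4me1, against 89.1% to 96.7% over all genes. In the other direction, 88.3% to 99.4% of its H3K4me1 bases were also under H3K27ac, against 75.8% to 90.7%. This second share was above that of all genes at each of the 5 stages. The values over all genes include every gene with bases of the mark and are not matched for promoter or end peaks. Whether the difference is particular to these genes was not tested. Single values from ES on went down to 47.2%, for Phf19 at ES, followed by Bmi1 at MS (51.2%) and Cbx8 at OB (51.5%). Phc2 had 57.4% to 80.5% and Cbx7 55.5% to 76.9% of H3K4me1 bases under H3K27ac from ES on. At Pre_PS the medians were 53.4% of H3K27ac and 48.8% of H3K4me1 bases, in the lists that cover the fewest bases.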

How the data were processed

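CoBATCH profiles of H3K27ac and H3K4me1 from 6 stages were read as 12 broad peak lists, 1 library per stage and mark. Per the submitters' processing notes, the authors' tools were MACS2, Bowtie2, deepTools and Picard, and the build was mm10; their versions and settings and the number and pooling of cells are not stated in the labels. The deposited fold is the authors' ratio of a peak over its local background and here describes peaks or ranks them inside 1 list. The −log10 q and −log10 p columns were written by the authors' peak caller and deposited as such. The q column and the fold served to filter lists for the alternatives. The p column, with the lowest fold, served to solve the local background given below. The deposited score, which the authors' caller derives from the q value, was not used.

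Covered bases were assigned to territories with the outer ends of 21631 protein-coding genes in RefSeq's GRCm38.p6 table, the assembly that mm10 names. Scripts ran in Python 3.11.15 with numpy 2.4.6, pandas 2.3.3 and matplotlib 3.10.9. Late stages (OB and EHF) were set against early ones (ES and MS), where a call needed no overlap and a ratio of at least 1.2, and members' counts were read against all genes with a peak. Tested on simulated data for the H3K27ac comparison (16332 genes), this found 200 of 200 genes changed 2-fold and called 8 others. The simulated lists were all built from the ES coverage with small random noise. That noise was set and not measured between replicates, so the 8 give no rate of false calls in the real lists. Values in every library are given for genes called, for genes without an end peak in a library, and for the 5 highest and 5 lowest percents of territory in each mark; promoters of 4 of these are printed. The genes and lists were chosen with earlier results of these data known. The labels give no fragment totals, so total depth is unknown. The local background, solved in fragments, was 0.050 for H3K27ac and 0.014 for H3K4me1 at Pre_PS. Later lists had 0.211 to 0.330 and 0.164 to 0.347. The lowest H3K4me1 peaks solved to 2 overlapping fragments in each early list of the comparison but to 3 in each late list. For H3K27ac it was 3 in all of these lists. The part of this difference in the H3K4me1 calls was not tested. Alternatives were other territory sizes, filters, scalings and stages, and leaving out each library.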

Additional observations from a re-analysis of the deposited data

How the results depend on the processing

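No paired analysis was possible because each stage and mark has 1 library. The counts of called genes moved with most settings, and the cause was not tested. Against 3 genes higher and 0 lower in H3K27ac, there were 6 and 2 with Pre_PS and ES as the early stages, 1 and 2 with covered bases not scaled to the library, and 9 and 1 with no minimum ratio. The shares of all genes moved too. They were 11.9% and 9.63% in the main comparison, and 20.0% and 9.39%, 7.26% and 13.3%, and 20.2% and 12.8% in these settings. In H3K27ac, 1 was lower with equal numbers of peaks (9.19% of all genes) or without floor peaks, those at the lowest value of a list (9.53%). Leaving out 1 library gave 4 (without EHF) to 11 (without MS) higher and 1 (without EHF) to 4 (without ES) lower. In those settings 19% to 23.3% of all genes were higher and 15.6% to 19.9% lower. Against 3 higher and 2 lower in H3K4me1, there were 8 and 1 with Pre_PS and ES, 5 higher with no minimum ratio, 1 higher with equal numbers of peaks and 1 lower in territories of 20 kb. The shares of all genes were 10.2% and 10.6% in the main comparison. In these settings they were 17.0% and 11.6%, 14.4% higher, 9.54% higher and 8.33% lower. Leaving out 1 library gave 1 (without EHF) to 11 (without OB) higher and 3 (without MS) to 8 (without EHF) lower. Of all genes, 17.0% to 25.8% were then higher and 18.8% to 21.7% lower. The median log2 ratio in H3K27ac, 0.12, was -0.14 with Pre_PS and ES and -0.0012 (without ES) to 0.17 (without MS) with 1 library left out. In H3K4me1 it was 0.06, and 0.17 with Pre_PS and ES, -0.012 not scaled, -0.020 with equal numbers of peaks and -0.040 (without EHF) to 0.15 (without OB) with 1 library left out. Of 88 alternatives for the 8 called genes, 59 kept the call and 25 kept the direction only. The other 4 reversed: with the upper 50% of each list, Bmi1 in H3K27ac was -0.89, Rnf2 -0.11 and Kdm6a 0.036 in H3K4me1, and with Pre_PS and ES, Phc3 was 0.70. Phc2 kept its call in 10 of 11 alternatives. Each count of genes with an end peak at all 6 stages stayed within 1.5 times under every alternative run. Fragment totals and replicates are lacking, so small secondary peaks near the calling threshold cannot be told from absent ones.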
